A study of Sus scrofa with 11 samples.

Results

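The difference between a high fat diet and a normal diet was measured in the ischemic left ventricle of pigs, as the part of that difference found in hearts injected with vehicle and in hearts injected with extracellular vesicles (EV). EV are membrane particles that cells release. All 11 arrays of the series entered the comparison, 5 of hearts on the high fat diet (HFD, 2 arrays, and HFD+EV, 3 arrays) and 6 of hearts on the normal diet (ND, 3 arrays, and ND+EV, 3 arrays). Arrays were assigned by the diet and injection in their titles, and no measured value was used. The shared diet effect of a gene is the mean of 2 differences, HFD minus ND and HFD+EV minus ND+EV. These 2 differences have no array in common.

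All groups were intact male Yorkshire pigs whose left circumflex coronary artery carried an ameroid constrictor, a device that narrows a vessel gradually by taking up water, so no group was free of ischemia. The pigs ate their diet for 12 weeks, vehicle or EV was injected into the ischemic muscle, and tissue was taken 5 weeks after the injection. The sources used here do not give the cell of origin or the dose of the EV. The titles call the arrays of a group biological replicates, but no label ties an array to a named animal, so the p-values measure the spread between these samples. The series was set up around the angiogenic response to EV under a high fat diet. The comparison described here asks what the diet alone went with, whichever injection was given.

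Heart muscle draws most of its energy from fatty acids, which are broken down in mitochondria and feed the tricarboxylic acid (TCA) cycle and the respiratory chain. Coenzyme Q carries electrons between the complexes of that chain. A surplus of dietary fat is sensed by nuclear receptors such as the peroxisome proliferator-activated receptors (PPARs), and a surplus of sterols by the liver X receptors (LXRs). Interferon-stimulated genes form a separate program that cells switch on against viruses and in sterile injury, and their products include sensors of double-stranded RNA.

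The authors deposited normalized log2 signal for 27558 probe sets, and all levels and differences below are on that log2 scale. A difference of 1 is a doubling. Probe sets whose mean signal fell in the bottom 25% were set aside, which left 20668 probe sets and 9738 named genes, each gene read from its brightest probe set. The cardiomyocyte markers tested (7 genes, among them the myosin gene MYH7 and the calcium regulator PLN) had mean log2 signals between 10.31 and 10.79 on all arrays. The spread of signal moved with the diet. The SD of log2 signal was 1.447, 1.514 and 1.469 on ND replicates 1 to 3 and 1.593 and 1.624 on HFD replicates 1 and 2. It was 1.502, 1.544 and 1.499 in ND+EV and 1.507, 1.582 and 1.596 in HFD+EV. The mean of the 2 diet differences in this SD was 0.0892 (exact permutation test of the diet within each injection, two-sided, p = 0.015, 200 arrangements, smallest possible 0.005). Its part in the gene results was not tested directly, and list medians after quantile normalization, which gives every array the same distribution, are given with the gene lists.

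**Figure D1:**
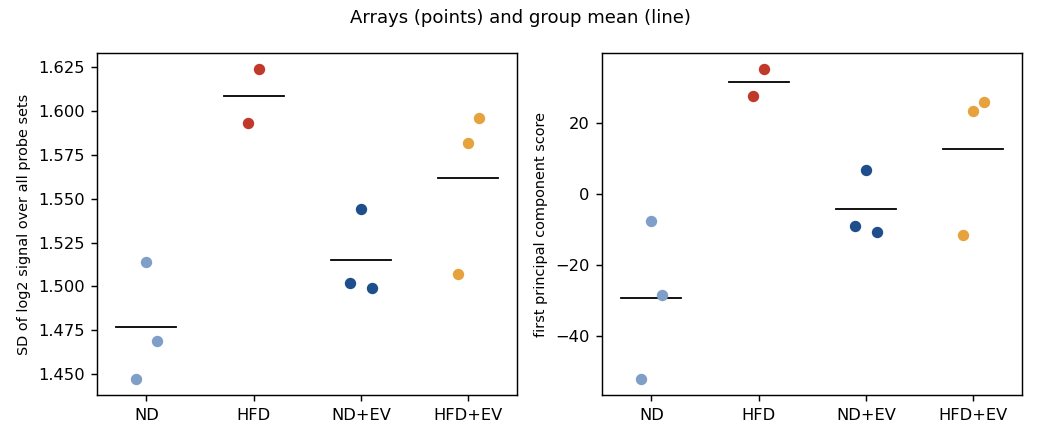
SD of log2 signal over all 27558 probe sets (left) and score on the first principal component, which held 35.8% of the variance (right). Points are arrays and lines are group means. HFD replicates 1 and 2 have the largest SD in the plot except for HFD+EV replicate 3 (1.596), which lies between them, and HFD+EV replicate 1 (1.507) lies within the range of the ND+EV arrays.

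More genes were higher than lower with the high fat diet. With limma, 242 of 20668 probe sets passed an adjusted p of 0.05 for the shared diet effect (1.17%), 178 higher (0.861%) and 64 lower (0.31%). Among named genes 112 of 9738 passed (1.15%), 100 higher (1.03%) and 12 lower (0.123%), and 120 of the 242 probe sets had no gene symbol. The sizes of the passing differences ran from 0.43 to 1.94. All calls lay close to the threshold, with adjusted p from 0.0461 to 0.0492, while 5108 probe sets (24.7%) had an unadjusted p under 0.05. No probe set passed without any 1 of ND replicates 1 and 3, HFD replicate 2, ND+EV replicates 1, 2 and 3 and HFD+EV replicates 2 and 3. The count was 2 without HFD replicate 1, 1256 without ND replicate 2 and 1399 without HFD+EV replicate 1. It was 0 after quantile normalization and 581 (501 higher, 80 lower) after each array was centred on its median. Values on each array are therefore given for the genes named first.

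**Figure D2:**
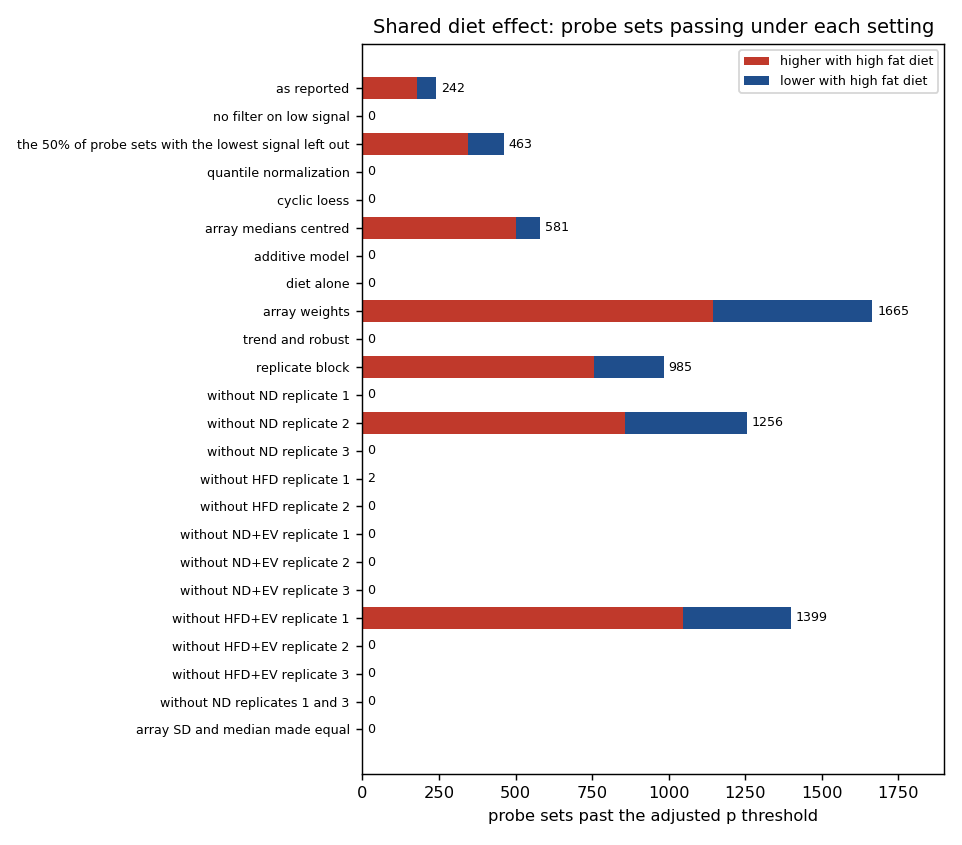
Number of probe sets past an adjusted p of 0.05 for the shared diet effect (x axis) under each of 24 settings (y axis), split into higher (red) and lower (blue) with the high fat diet. The bar as reported stands at 242, most settings stand at 0, and the longest bars are array weights (1665) and the fit without HFD+EV replicate 1 (1399).

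The arrays themselves gave a second, coarser view. In 1057 probe sets (5.11%) the HFD and ND arrays did not overlap within either injection and lay in the same order in both, 597 with HFD higher (2.89%) and 460 with HFD lower (2.23%). The split was 943 higher and 260 lower with array medians centred, and 607 higher and 701 lower with no filter on low signal. In 116 probe sets (0.561%) they did not overlap within either injection but lay in opposite orders. Among the 242 passing probe sets, 152 (62.8%) belonged to the first kind, and 237 had the same sign with both injections, against 66.7% of all probe sets. The 242 were picked by the mean of the 2 differences on these same arrays, so both counts are in large part built in. The 1057 became 3239 without HFD+EV replicate 1, 2171 without ND+EV replicate 2 and 1581 without HFD replicate 1. With fewer arrays there is less to overlap, so these counts are higher by construction.

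The diet difference was mostly larger with vehicle. Of the 242 passing probe sets 214 (88.4%) differed more between HFD and ND than between HFD+EV and ND+EV, against 68.4% of all probe sets, and their median size was 0.92 with vehicle and 0.45 with vesicles. On its own the vehicle comparison called 152 probe sets (0.735%), and the vesicle comparison called 0 with limma, where 1522 had an unadjusted p under 0.05. The vesicle count was 10 with array weights, 2 without ND replicate 1 and 2 without HFD+EV replicate 1. The vehicle count was 0 without any 1 of HFD replicate 2, ND+EV replicates 1, 2 and 3 and HFD+EV replicates 2 and 3. It was 1 without ND replicate 1, 12 without ND replicate 3, 7 without HFD replicate 1, 722 without HFD+EV replicate 1 and 1356 without ND replicate 2. The test of the difference between the 2 diet differences called 0 probe sets with limma, 1740 had an unadjusted p under 0.05, and 1 passed without HFD replicate 1. Of the 152 vehicle calls, 126 (82.9%) had the same sign in the vesicle arrays, against 66.7% of all probe sets. In 43 of the 152 (28.3%) the vesicle arrays did not overlap and lay the same way, against 11.3% of all probe sets. The vehicle difference did not use the vesicle arrays, but its test did, through the spread estimated over all 11 arrays. These shares are therefore no independent check. The median difference of the 152 vehicle calls was 1.14 with vehicle and 0.21, in the same direction, with vesicles. These probe sets were picked for their vehicle difference, so the gap between the 2 medians is in part built in. With only 2 HFD arrays the vehicle difference is also the less precise of the 2. Across the 20668 probe sets, which do not count as replicates, the 2 diet differences had a Pearson correlation of 0.397 and a Spearman correlation of 0.418.

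**Figure D3:**
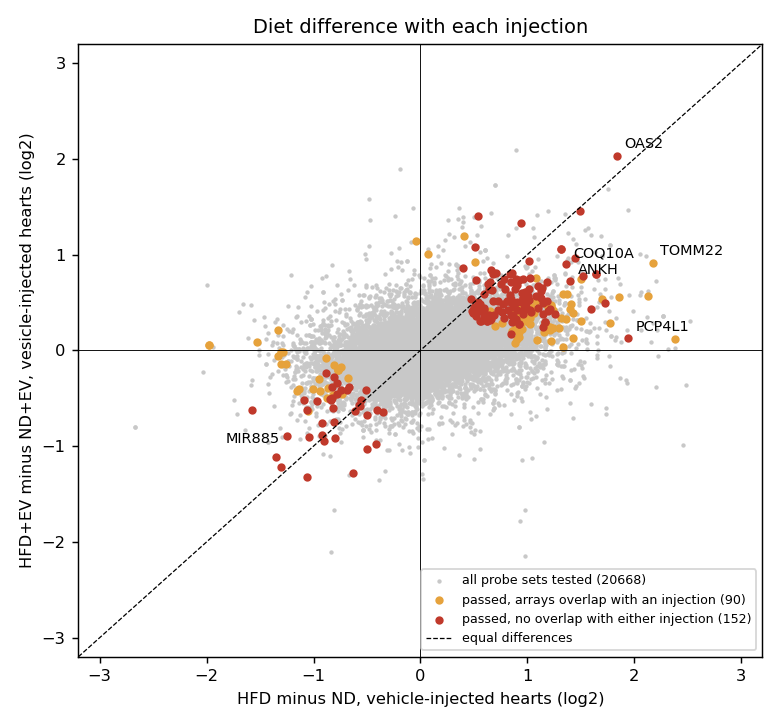
Diet difference with vehicle (x axis, HFD minus ND, log2) against that with vesicles (y axis, HFD+EV minus ND+EV, log2) for 20668 probe sets. Grey points are all probe sets, orange and red points the 90 and 152 that passed and whose arrays did or did not overlap within an injection. OAS2 and MIR885 lie near the dashed line of equal differences, and PCP4L1 lies far to the right of it.

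OAS2 had the largest difference of the named genes that passed. It encodes an enzyme that senses double-stranded RNA and makes 2-5A, the short oligoadenylate that switches on the nuclease RNase L. Its log2 signal was 5.14, 6.34 and 6.90 on ND replicates 1 to 3 and 8.12 and 7.81 on HFD replicates 1 and 2. With vesicles it was 5.86, 6.55 and 6.94 in ND+EV and 9.32, 8.29 and 7.85 in HFD+EV. The lowest HFD array lay above the highest ND array whichever injection was given. OAS2 rose 3.58-fold with vehicle and 4.10-fold with vesicles, a shared difference of 1.94 ± 0.35 (SE; limma adjusted p = 0.0461). The difference between the 2 effects was 0.19 (unadjusted p = 0.788).

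The interferon-stimulated genes as a list differed less with vehicle than OAS2 did. Of 23 tested, 20 were higher on average and 1 passed, OAS2 itself. Of all genes 54.8% were higher on average, or 65.2% with array medians centred, and the counts of higher members below are to be read against these shares. The median difference of the list was 0.05 with vehicle and 0.68 with vesicles, and 0.33 shared, against a shared median of 0.03 over all genes. The list's mean score was -0.285 to -0.173 on the ND arrays and -0.15 and -0.106 on the HFD arrays. With vesicles it was -0.253 to -0.0764 in ND+EV and 0.43 to 0.54 in HFD+EV. The score did not overlap between the diets within either injection, though both HFD scores lay within the range of the ND+EV arrays. In 4 members the arrays did not overlap with either injection, HFD higher, against 3.84% of all genes: OAS2, the transcription factor subunit STAT2 (0.39 with vehicle, 0.60 with vesicles), the antiviral gene IFIT3 (0.34 and 0.84) and USP18, a protease that removes ISG15 from proteins (0.42 and 1.10). The last 3 did not pass (adjusted p = 0.0584, 0.109 and 0.0621). IFIH1, another sensor of double-stranded RNA, was at 0.25 and 0.83 and did not pass either (0.0582).

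Among antigen presentation genes, ERAP2 differed by the same amount with both injections. ERAP2, an aminopeptidase of the endoplasmic reticulum that trims peptides for MHC class I, had log2 signals of 5.24, 5.78 and 5.34 in ND and 6.20 and 5.998 in HFD. With vesicles it had 5.79, 5.71 and 6.08 in ND+EV and 6.32, 6.52 and 6.67 in HFD+EV. HFD replicate 2 lay below ND+EV replicate 3, but within an injection the diets did not overlap. ERAP2 rose 1.56-fold with each injection (shared difference 0.64 ± 0.13, SE; limma adjusted p = 0.0487). ERAP1, its partner enzyme, was at 0.44 with vehicle and 0.33 with vesicles without passing (adjusted p = 0.0916). Of 22 antigen presentation genes 21 were higher and 1 passed, with a median of 0.25 with vehicle and 0.24 with vesicles. The diet difference of the peptide transporter TAP1 had opposite signs, -0.12 with vehicle and 0.93 with vesicles. The test of the difference between these 2 values did not pass (limma unadjusted p = 0.00164, adjusted p = 0.572).

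The rule for naming genes took passing genes whose diets did not overlap within either injection, in order of the smaller of the 2 differences. It gave 12 higher genes, of which 11 had every HFD or HFD+EV array above every ND or ND+EV array. The rule makes that order likely, so it is no separate support, and 204 of all 9738 genes tested had it. After OAS2 came COQ10A, a coenzyme Q binding protein of mitochondria. Its log2 signal was 4.72, 5.83 and 5.81 in ND, 6.75 and 6.87 in HFD, 5.81, 5.84 and 6.07 in ND+EV, and 6.23, 6.93 and 7.25 in HFD+EV. HFD+EV replicate 1 was the lowest HFD array and still above all 6 ND arrays. The shared difference was 1.13 ± 0.23 (SE; limma adjusted p = 0.0492), 2.56-fold with vehicle and 1.86-fold with vesicles.

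ANKH encodes a membrane protein that exports pyrophosphate, an inhibitor of mineral deposition. Its log2 signal was 7.87, 8.48 and 8.51 in ND and 9.46 and 9.92 in HFD, and with vesicles 8.74, 8.67 and 8.53 in ND+EV and 9.04, 9.35 and 9.74 in HFD+EV. The diets did not overlap, and HFD+EV replicate 1 was again the lowest HFD array. ANKH rose by 1.07 ± 0.17 (SE; limma adjusted p = 0.0461). Of the 10 genes tested for phosphate and pyrophosphate handling 9 were higher and ANKH alone passed. The list median was 0.41, or 0.16 without HFD replicate 2 and 0.23 after quantile normalization. The mitochondrial phosphate carrier SLC25A3 (0.78) and ENPP1, which makes pyrophosphate from ATP (0.44), did not pass (adjusted p = 0.0621 and 0.0685).

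MYLIP, also called IDOL, is an LXR-induced ubiquitin ligase that marks the LDL receptor for breakdown. Its log2 signal was 6.80, 7.14 and 6.58 in ND, 7.51 and 7.48 in HFD, 6.79, 6.80 and 6.69 in ND+EV, and 7.21, 7.86 and 7.72 in HFD+EV. All HFD arrays lay above all ND arrays. MYLIP rose 1.58-fold with vehicle and 1.79-fold with vesicles (shared difference 0.75 ± 0.14, SE; limma adjusted p = 0.0461). Of 10 genes tested for cholesterol export and LXR targets, MYLIP alone passed, 6 were higher, and the list median was 0.07. The LXR alpha gene NR1H3 (-0.40, adjusted p = 0.205) and the HDL receptor SCARB1 (0.29, 0.226) had the next smallest p.

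LCP1, the actin bundling protein L-plastin of white blood cells, had log2 signals of 5.92, 6.25 and 5.85 in ND, 7.001 and 7.38 in HFD, 6.37, 6.71 and 6.18 in ND+EV, and 6.76, 7.17 and 7.47 in HFD+EV. It rose by 0.95 ± 0.16 (SE; limma adjusted p = 0.0461). HFD+EV replicate 1 (6.76) lay just above ND+EV replicate 2 (6.71). The mean log2 signal of 10 macrophage markers was 5.42 to 5.92 in ND, 5.86 to 6.03 in HFD, 5.81 to 6.20 in ND+EV and 5.83 to 6.16 in HFD+EV. That of 11 T or NK cell markers was 4.62 to 4.70, 4.55 to 4.67, 4.52 to 4.67 and 4.58 to 4.77 in the same order. These ranges overlap. The 3 neutrophil markers tested were all lower, with a mean log2 signal of 3.988 to 4.167 in ND, 3.789 to 3.863 in HFD, 4.052 to 4.077 in ND+EV and 3.776 to 4 in HFD+EV. These signals lie close to the lowest mean kept (3.63), so the size of that difference is uncertain. The part of white blood cells in the LCP1 result was not tested, and in bulk tissue more cells of a type and more RNA per cell cannot be told apart.

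The other 6 higher genes had shared differences from 0.73 to 0.88. DLD, the dihydrolipoamide dehydrogenase shared by the pyruvate and 2-oxoglutarate dehydrogenase complexes, read 4.82, 5.28 and 4.41 in ND, 5.68 and 6.19 in HFD, 5.03, 5.46 and 4.93 in ND+EV, and 5.75, 5.91 and 5.79 in HFD+EV. The palmitoyltransferase ZDHHC9 rose by 0.85, but its HFD arrays read 6.13 and 7.28, and without HFD replicate 2 the value was 0.56. PPP1CB, a catalytic subunit of protein phosphatase 1, read 6.56, 6.94 and 6.25 in ND, 7.24 and 7.78 in HFD, 6.58, 6.84 and 6.41 in ND+EV, and 7.13, 7.35 and 7.55 in HFD+EV. ABCE1, which splits ribosomes after translation and is also known as an inhibitor of RNase L, rose by 0.89 with vehicle and 0.65 with vesicles. PDE12, a phosphodiesterase, rose by 0.76 and 0.70. Its means in ND and ND+EV (3.59 and 3.39) lay below the lowest mean kept (3.63), so it passed the filter on low signal through the HFD groups, and the size of its difference is uncertain. The adhesion receptor ADGRL2 (latrophilin 2) rose by 0.71 and 0.81. The adjusted p of these genes lay between 0.0461 and 0.0487.

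Among the lower genes, 4 named genes passed without overlap. MIR885, a microRNA gene, had log2 signals of 4.49, 4.49 and 4.82 in ND and 3.53 and 3.57 in HFD. With vesicles it had 4.61, 3.91 and 4.45 in ND+EV and 3.19, 3.41 and 3.64 in HFD+EV. All HFD arrays lay below all ND arrays. MIR885 fell, with a shared difference of -0.98 ± 0.14 (SE; limma adjusted p = 0.0461). Of its 5 HFD and HFD+EV signals 4 lay below the lowest mean kept (3.63), so it passed the filter through its ND arrays. No fold is given, and a detection call was not used here.

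CUEDC1, a protein with a ubiquitin-binding CUE domain, was the brightest of the lower genes, with log2 signals of 8.30, 7.82 and 7.90 in ND, 7.29 and 7.07 in HFD, 8.04, 7.78 and 7.88 in ND+EV, and 7.57, 7.70 and 7.28 in HFD+EV. It fell by 0.61 on the log2 scale (limma adjusted p = 0.0487). NFE2, a transcription factor of red cell and platelet precursors, fell by 0.55, from 4.20 ± 0.16 in ND to 3.52 ± 0.20 in HFD and from 4.17 ± 0.22 in ND+EV to 3.76 ± 0.13 in HFD+EV (SD, n = 3, 2, 3 and 3). Its HFD mean lay below the lowest mean kept, so its difference has the same limit as that of MIR885. Both red cell markers tested were lower with each injection. Their mean log2 signal was 3.92 to 4.557 in ND, 3.776 to 3.836 in HFD, 4.032 to 4.376 in ND+EV and 3.89 to 4.071 in HFD+EV, and their part in the NFE2 result was not tested. The HFD signals of these markers lie close to the lowest mean kept, so the size of their difference is uncertain. MIP, an aquaporin best known from the lens, fell by 0.52, from log2 signals of 4.68 to 5.06 on the ND and ND+EV arrays to 4.04 to 4.41 on the HFD and HFD+EV arrays. CDK1, the kinase that drives entry into mitosis, was lower without overlap in either injection (-0.53 with vehicle, -0.74 with vesicles) and did not pass (adjusted p = 0.102). Of the 16 cell cycle genes tested, CDK1 among them, 7 were higher, the median was -0.04, and 0 passed with limma.

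**Figure D4:**
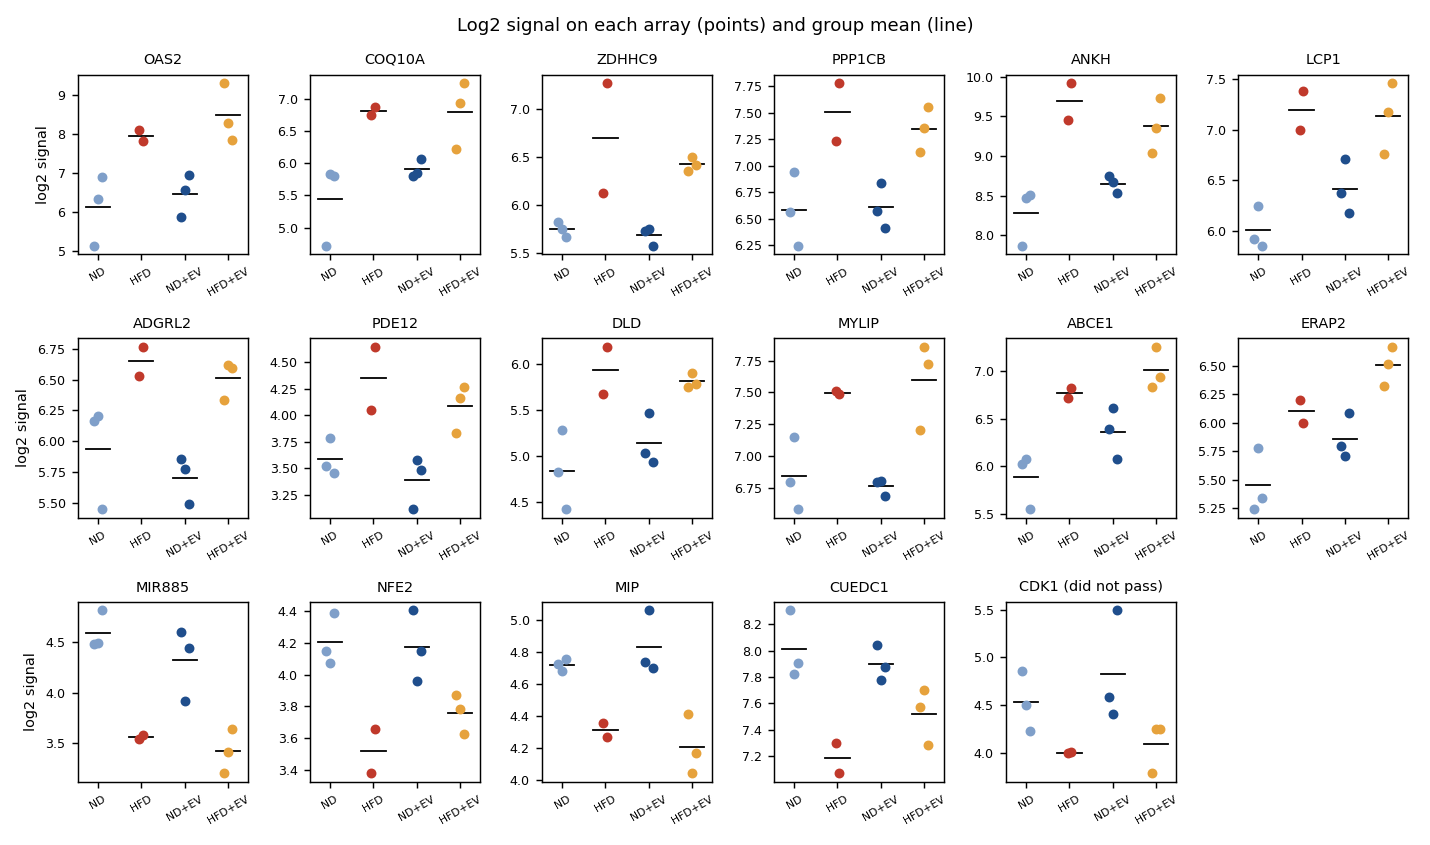
Log2 signal (y axis) on each array by group (x axis) for the 12 higher and 4 lower genes that passed without overlap, and for CDK1, which did not pass. Points are arrays and lines group means, and each panel has its own y range. In every panel the HFD points are on 1 side of the ND points and the HFD+EV points on the same side of the ND+EV points.

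Some genes that passed owed most of their shared difference to vehicle hearts. TOMM22, a receptor of the import pore in the outer mitochondrial membrane, read 4.98, 5.56 and 5.47 in ND and 7.51 and 7.52 in HFD. With vesicles it read 6.10, 6.44 and 5.25 in ND+EV and 6.02, 7.18 and 7.34 in HFD+EV, where HFD+EV replicate 1 overlapped the ND+EV arrays. Its difference was 2.18 with vehicle and 0.92 with vesicles. PSMD8, a subunit of the proteasome's regulatory cap, differed by 1.85 and 0.56, and the p53 target PERP, a membrane protein of cell junctions, by 1.70 and 0.54. PERP read 3.54 on HFD+EV replicate 1 and 4.14 and 4.79 on the other 2 arrays of that group, and its means in ND and ND+EV (3.53 and 3.61) lay below the lowest mean kept. The autophagy protease ATG4A (1.34 and 0.04), PCP4L1 (1.95 and 0.12) and FAM129A, a regulator of translation under stress (1.77 and 0.29), had almost all of their difference with vehicle. Unlike ATG4A and FAM129A, PCP4L1 was free of overlap with both injections, with every HFD or HFD+EV array above every ND or ND+EV array. The unadjusted p of the difference was 0.000428 for ATG4A, 0.000261 for PCP4L1 and 0.00347 for FAM129A, and 0 probe sets passed that test after adjustment.

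Nuclear-encoded respiratory chain genes had the highest shared median of the 49 lists in the values as reported, though not in all settings. After quantile normalization (0.37 against 0.32) and cyclic loess (0.37 against 0.31) the interferon-stimulated genes were above them. All 31 respiratory chain genes were higher on average and 2 passed, the complex I subunit NDUFS3 (1.24 with vehicle, 0.42 with vesicles) and the ATP synthase subunit ATP5A1 (1.32 and 0.34). Another complex I subunit, NDUFB6 (1.01 shared), did not pass. Of the 31, 23 were higher with both injections, 0 were free of overlap with both, and the median was 0.87 with vehicle and 0.09 with vesicles. The list score was lowest on ND replicates 1 and 3 (-1.09 and -0.492), next on HFD+EV replicate 1 (-0.233) and highest on HFD+EV replicate 2 (0.496). The shared median of 0.50 was 0.29 without ND replicates 1 and 3 and 0.32 after quantile normalization.

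Coenzyme Q genes separated the diets with both injections. All 8 tested were higher, 7 of them with each injection, and COQ10A and the methyltransferase COQ5 passed, against 1.03% of all genes. COQ5 read 7.396, 8.15 and 7.62 in ND, 8.66 and 8.69 in HFD, 8.23, 8.34 and 8.13 in ND+EV, and 8.42, 8.92 and 8.94 in HFD+EV. It rose by 0.96 with vehicle and 0.52 with vesicles and its arrays did not overlap. The list score was -0.424 to -0.0687 in ND and 0.202 and 0.227 in HFD. With vesicles it was -0.0878 to -0.0121 in ND+EV and 0.00266, 0.285 and 0.326 in HFD+EV. The shared median was 0.23, and COQ2, which attaches the side chain of coenzyme Q, was at 0.26 without passing (adjusted p = 0.232).

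TCA cycle genes were all higher (13 of 13, median 0.61 with vehicle and 0.17 with vesicles), and the shared median of 0.44 was 0.27 after quantile normalization. DLD passed, and DLAT, the E2 subunit of pyruvate dehydrogenase (0.71), and SUCLA2 (0.48), a subunit of succinate-CoA ligase, did not (adjusted p = 0.0532 and 0.0557). PDHX, which ties DLD into the pyruvate dehydrogenase complex and is no member of the list, rose by 0.56 with vehicle and 0.48 with vesicles. It was picked after its value was seen. All 16 fatty acid oxidation genes were higher, 14 with each injection (medians 0.52 and 0.28), and 0 passed with limma, where the smallest adjusted p was 0.0537 for ACADL, the long-chain acyl-CoA dehydrogenase (0.70 and 0.43). The medium-chain enzyme ACADM (0.52) and HADH (0.55) followed. The shared median of 0.38 was 0.18 after quantile normalization.

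Branched-chain amino acid and ketone genes were higher in 14 of 16 cases (median 0.68 with vehicle, 0.15 with vesicles), with HIBADH of valine breakdown at 0.55, ACADSB at 0.49 and AUH of leucine breakdown at 0.47, and 0 passed. Of 15 glycolysis genes 13 were higher (0.53 and 0.09) and 0 passed. Lactate dehydrogenase LDHA (0.83), PGK1 (0.56) and the pyruvate kinase PKM (0.61) had the smallest p, and LDHA, HK1 and the insulin-responsive glucose transporter SLC2A4 were free of overlap. SLC2A4 was at 0.40 with vehicle and 0.35 with vesicles (adjusted p = 0.135). After quantile normalization the shared medians of these 2 lists were 0.22 and 0.24, in place of 0.35 and 0.36. Of 14 genes of mitochondrial protein import 12 were higher and TOMM22 passed (median 0.20), with the chaperone HSPA9 at 0.49 and the processing peptidase PMPCB at 0.63. Of 27 mitochondrial ribosome genes 22 were higher and MRPL16 passed (0.71), with a median of 0.41 with vehicle and 0.01 with vesicles, and MRPL3 (0.68) and MRPS22 (0.41) did not pass. That shared median of 0.23 was 0.15 without HFD replicate 1 and 0.10 after quantile normalization.

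The lists of PPAR targets, lipid droplets, cholesterol synthesis and fatty acid synthesis had shared medians from 0.04 to 0.24, below the 0.38 of fatty acid oxidation genes. Of 11 PPAR targets 6 were higher and 0 passed, with TXNIP at 0.29, the lipid droplet coat protein PLIN2 at 0.39 and CREB3L3 at -0.17, and the median of 0.24 was 0.07 without ND replicate 1 and 0.13 without HFD replicate 2. TXNIP turned to -0.09 when the SD and median of the arrays were made equal. Lipid droplet and triglyceride genes had a median of 0.04 (13 of 19 higher, 0 passed), with FITM2 of droplet formation free of overlap at 0.42 and LPIN3 at -0.20. Cholesterol synthesis and uptake genes had a median of 0.07 (8 of 11 higher, 0 passed), with SC5D at 0.45, NSDHL at 0.25 and the rate-setting squalene epoxidase SQLE at -0.19. Fatty acid synthesis genes had a median of 0.12 (6 of 8 higher, 0 passed), with ACSS2 at 0.57, FADS2 at 0.27 and ACACB at 0.22. That median was 0.01 without HFD replicate 2 and 0.23 without HFD replicate 1, and ACACB turned to -0.02 under quantile normalization and under cyclic loess. Of 17 insulin signalling genes 14 were higher (median 0.19, or 0.10 without ND replicate 1 and 0.04 after quantile normalization). IGF1, insulin-like growth factor 1, passed with 0.95 with vehicle and 0.30 with vesicles. The kinase GSK3A (0.43) and TBC1D1, a brake on glucose transporter traffic (0.39), did not.

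Protein turnover and folding genes were higher as well. All 23 proteasome genes were higher, 17 with each injection, and PSMD8 and PSMD12 (0.84) passed, with PSMD1 at 0.68 (adjusted p = 0.0532). The median was 0.81 with vehicle and 0.16 with vesicles, and the shared 0.49 was 0.29 after quantile normalization. Of 21 heat shock proteins and co-chaperones 18 were higher and 0 passed (0.61 and 0.16), with HSPA8 (0.62), the chaperonin subunit CCT2 (0.80) and HSPH1 (0.49) in front. The shared 0.43 was 0.29 without ND replicate 1 and 0.23 after quantile normalization. Of 21 unfolded protein response genes 17 were higher, 16 with each injection (0.43 and 0.20). CALR, the calcium-binding chaperone calreticulin, passed with 0.99 with vehicle and 0.52 with vesicles, without overlap. The disulfide isomerase PDIA3 (0.84, without overlap) and the co-chaperone DNAJB9 (1.23) did not (adjusted p = 0.0532 each). ASNS of the same list was lower without overlap, at -0.146 with vehicle and -0.160 with vesicles (limma adjusted p = 0.282). Of all genes 3.84% were higher and 1.74% lower without overlap.

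Of 25 autophagy and lysosome genes 17 were higher and 2 passed, ATG4A and the autophagy receptor SQSTM1 (1.26 and 0.38, without overlap), with the Rag GTPase RRAGC at 0.34. The median of 0.19 was 0.10 without ND+EV replicate 1 and 0.12 without ND+EV replicate 3. Antioxidant genes were higher in 18 of 21 cases (median 0.24) and 0 passed, with the stress-response transcription factor NFE2L2 at 0.58 and the peroxidases PRDX3 at 0.67 and PRDX6 at 0.93. The p53 and apoptosis list had a median of 0.12 with vehicle and 0.14 with vesicles (12 of 17 higher), and PERP passed. Its members XIAP, an inhibitor of caspases (0.35), and the mitophagy receptor BNIP3L (0.61) were free of overlap and did not pass. Cytosolic ribosomal protein genes had a median of 0.45 with vehicle and -0.25 with vesicles (19 of 30 higher on average, 0 passed). The genes with the smallest p were RPS4X (0.31), RPS3 (0.30, turning to -0.10 with equal array SDs) and RPS25 (-0.28). The shared median of 0.12 turned to -0.10 without ND replicate 1.

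Matrix genes were higher on average with a wide spread between arrays. Of 34 extracellular matrix and fibrosis genes 31 were higher, 23 with each injection, and 0 passed (median 0.60 with vehicle, 0.09 with vesicles). The cytokine TGFB1 was at 0.43, VCAN, the proteoglycan versican, at 0.75 and the microfibril protein FBN1 at 0.55 with vehicle and 0.64 with vesicles, without overlap (adjusted p = 0.0703, 0.0867 and 0.0822). The shared median of 0.40 was 0.21 without HFD replicate 2 and 0.23 after quantile normalization. Of the fibroblast markers 8 of 8 were higher as well (median 0.42). Their mean log2 signal was 7.52 to 8.37 in ND and 8.38 to 8.84 in HFD. With vesicles it was 8.20 to 8.27 in ND+EV and 8.06 to 8.74 in HFD+EV. The leading markers, FBLN1 (0.50), DCN (0.45) and COL3A1 (0.40), encode matrix proteins themselves. A rise shared with the matrix list is therefore partly built in and is no separate sign of fibroblasts. The part of fibroblasts in the matrix result was not tested.

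Genes of blood vessel growth differed by a similar small amount with both injections. Of 29 angiogenesis genes 22 were higher, 18 with each injection, with a median of 0.19 with vehicle and 0.18 with vesicles, and 0 passed with limma. HIF1A, the oxygen-regulated subunit of the hypoxia-inducible factor, was without overlap at 0.93 and 0.53 (adjusted p = 0.0621). The Notch ligand DLL4 was at 0.55 and the chemokine receptor CXCR4 at 0.46. VEGFA was lower, at -0.48 with vehicle and -0.02 with vesicles (adjusted p = 0.289). After quantile normalization the list median of 0.17 was 0.10. Endothelial markers were higher in 8 of 9 cases (median 0.19, or 0.31 without HFD replicate 1, turning to -0.02 under cyclic loess), with VWF at 0.36, KDR at 0.45 and EGFL7 at -0.28. The mean log2 signal of these markers was 6.55 to 6.92 in ND, 6.73 to 6.95 in HFD, 6.51 to 6.72 in ND+EV and 6.70 to 7.05 in HFD+EV. The part of endothelial cells in the vessel genes was not tested.

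Of 19 hypoxia genes 15 were higher and 0 passed, and the score was without overlap in both injections, at -0.271 to -0.0073 in ND, 0.102 and 0.115 in HFD, -0.0485 to -0.0133 in ND+EV and 0.0815 to 0.148 in HFD+EV. The prolyl hydroxylase EGLN1 was at 0.43, and HIF1A, LDHA and the hormone STC1 (0.50) were free of overlap. The list median of 0.13 was 0.06 without ND replicate 3. Of 22 nitric oxide and vascular tone genes 15 were higher and 0 passed (median 0.16, or 0.10 without ND replicate 1), with the endothelin receptor EDNRA at 0.74, the angiotensin receptor AGTR1 at 0.51 and the phosphodiesterase PDE3A at 0.53, without overlap. Its score was also without overlap, at -0.213 to -0.0385 in ND, 0.0601 and 0.129 in HFD, -0.115 to 0.0279 in ND+EV and 0.057 to 0.119 in HFD+EV. Among 7 pericyte markers 5 were higher (median 0.08), with RGS5 at 0.71, ABCC9 at 0.38 and HIGD1B at -0.25. Over all genes 5.58% were without overlap with both injections, 3.84% higher and 1.74% lower.

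Heart muscle genes differed by list. Of 18 cardiac stress and fetal genes 15 were higher and 0 passed (median 0.84 with vehicle, 0.22 with vesicles), with the natriuretic peptide NPPA at 1.33, SYNPO2L at 0.57 and ANKRD1 at 0.49. After quantile normalization the shared median of 0.42 was 0.29. Atrial markers had a median of 0.72 with vehicle and 0.09 with vesicles (5 of 9 higher), and the shared median of 0.28 turned to -0.03 without HFD replicate 2. Their mean log2 signal was 5.36 to 6.01 in ND, 5.96 and 6.75 in HFD, 5.62 to 5.88 in ND+EV and 5.59 to 5.77 in HFD+EV. They were led by PAM (0.62), NPPA and SLN (0.96), and their part in the stress gene result was not tested. Of 19 sarcomere genes 16 were higher (median 0.30), with SMYD1 at 0.57, MYH7 at 0.30 and MYOM1 at 0.42. That median turned to -0.03, and that of the cardiomyocyte markers from 0.21 to -0.20, when the SD and median of the arrays were made equal, so no direction is given for them. All 16 calcium handling genes were higher (median 0.25, or 0.09 under cyclic loess), with CASQ2 at 0.75, CASQ1 at 0.47 and CACNB2 at 0.42. Of 17 ion channel genes 10 were higher (0.01), with the gap junction gene GJA1 at 0.77, KCNE1 at 0.50 without overlap and ABCC9. Of the last 4 lists 0 genes passed.

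Inflammatory genes were split. Of 30 cytokine and NF-kB genes 16 were higher and 0 passed, with a median of 0.03. NFKB1, the p50 subunit of NF-kB, was higher without overlap at 0.68 with vehicle and 0.48 with vesicles (adjusted p = 0.0582), the receptor TNFRSF1A was at 0.47, and S100A12, a calcium-binding protein of granulocytes, was lower without overlap at -0.46 and -0.32 (0.076). Complement genes were higher in 11 of 13 cases (median 0.29, or 0.19 without ND replicate 1) and 0 passed, with C7 of the membrane attack complex at 1.25 and 0.37 without overlap (adjusted p = 0.0521), C1S at 0.37 and CLU at 0.82. Immediate early genes were higher in 12 of 16 cases (median 0.18, or 0.05 without HFD+EV replicate 3), with ATF3 at 0.81, DUSP5 at 0.41 and CYR61 at -0.25. Of 25 genes of vesicle biogenesis 22 were higher, 19 with each injection (median 0.26), and 0 passed. PDCD6IP, known as ALIX, was without overlap at 0.69 and 0.28 (adjusted p = 0.0532), with STAM at 0.41 and TSG101 at 0.69.

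The remaining lists had small medians. Those of the circadian, glucocorticoid, B or plasma cell, adipocyte, macrophage and T or NK cell lists, and of the ion channel and cell cycle lists above, changed sign under at least 1 of the 24 settings tried. Circadian clock genes (8 of 13 higher, median 0.08) were led by BHLHE40 (0.38), NFIL3 (0.30, without overlap) and PER2 (-0.28), and glucocorticoid-induced genes (6 of 13, -0.01) by GLUL (0.27), the pyruvate dehydrogenase kinase PDK4 (0.47) and DUSP1 (0.26). Markers of B or plasma cells (1 of 5 higher, -0.17), adipocytes (3 of 6, -0.01), epicardium or mesothelium (4 of 5, 0.08), macrophages (6 of 10, 0.09) and T or NK cells (5 of 11, -0.05) had 0 passing genes each. Their members with the smallest p were XBP1 (0.65), CD79B (-0.39) and TNFRSF17 (-0.32) for B or plasma cells, PPARG (0.27), LPL (0.24) and PLIN1 (-0.14) for adipocytes, and KRT19 (-0.39), UPK1B (0.21) and KRT18 (0.11) for epicardium. For macrophages they were MARCO (-0.37), C1QB (0.71) and C1QA (0.35), and for T or NK cells NKG7 (0.46), CD4 (-0.36) and CD247 (0.21). The 8 lists with fewer than 5 genes tested marked skeletal and smooth muscle, lymphatic endothelium, platelets, nerve, neutrophils, red cells and mast cells and held 0 passing genes.

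Quantile normalization lowered most of the larger list medians. Beside those already given, it took PPAR targets from 0.24 to 0.06, fatty acid synthesis from 0.12 to 0.0018, mitochondrial protein import from 0.20 to 0.13 and the unfolded protein response from 0.34 to 0.22. It took autophagy and lysosome genes from 0.19 to 0.08, p53 targets from 0.13 to 0.04 and complement from 0.29 to 0.18. Sarcomere genes went from 0.30 to 0.18, calcium handling from 0.25 to 0.13, cardiomyocyte markers from 0.21 to 0.14 and atrial markers from 0.28 to 0.09. Fibroblast markers went from 0.42 to 0.25 and endothelial markers from 0.19 to 0.03. The medians of interferon-stimulated (0.37), coenzyme Q (0.20), antigen presentation (0.18), antioxidant (0.19), hypoxia (0.14), vascular tone (0.12) and vesicle biogenesis genes (0.22) moved by less than 1.5 times.

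**Figure D5:**
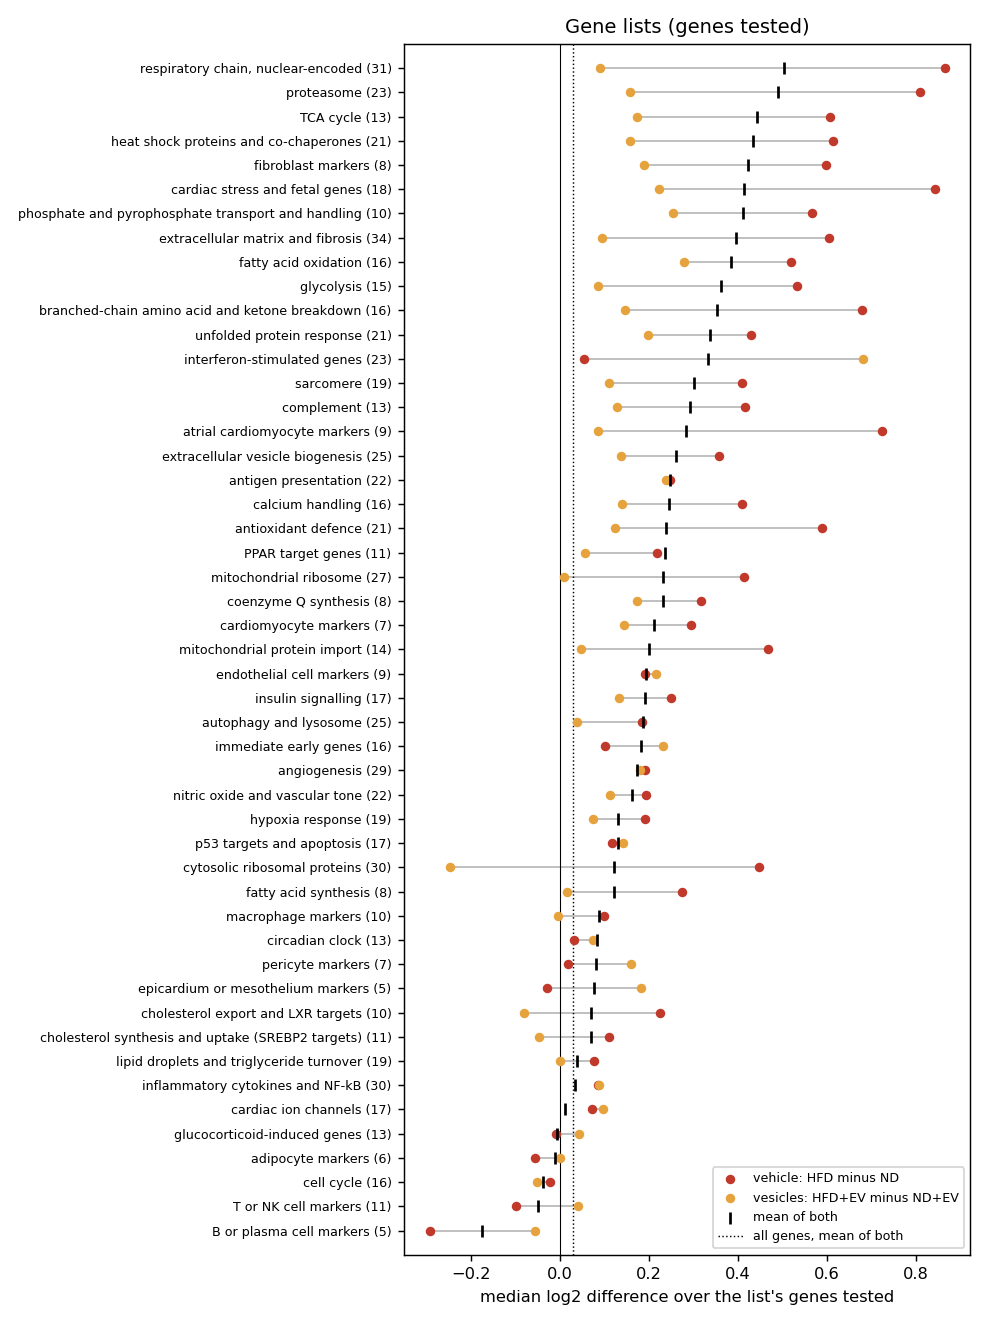
Median log2 difference over the tested genes of each of 49 lists (number of genes in parentheses), with vehicle (red), with vesicles (orange) and as the mean of both contrasts per gene (black bar). The dotted line is the shared median of all genes (0.03). Respiratory chain genes have the highest shared median plotted (0.50) and a wide gap between injections, while antigen presentation and angiogenesis genes have nearly equal medians with both.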

How the data were processed

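Tissue RNA (50 ng per array, per the labels' protocols) was measured on Affymetrix arrays. The values deposited by the authors are log2 signals, 1 per probe set and array, made with Transcriptome Analysis Console per the submitters' processing notes. The sources used here give no summary method or genome build, and neither coordinates nor sequences are printed. The platform annotation left 13878 of 27558 probe sets without a symbol, gave 523 several and 13157 exactly 1. Of the last, 12841 were found in a newer gene table through their gene ID, and 7 symbols were replaced. Probe sets with several symbols were not named. In the tested set 803 probe sets shared all values with another, and the 242 that passed held 233 distinct sets of values.

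After the filter on low signal, limma 3.58.1 in R 4.3.3 fitted 1 mean per group over the 11 arrays (7 residual and 3.62 prior degrees of freedom). Tests were two-sided, with p-values adjusted by Benjamini and Hochberg's method over 20668 probe sets. The functions were tested on simulated data. Of 1201 symbols in 57 lists, 826 were on the array and 770 were tested, and 49 lists with at least 5 tested genes were described by counts and medians, with no set test. A list score averages, over a list's genes, how far an array's signal lay from that gene's mean on the 11 arrays.

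Named were up to 12 higher and 12 lower passing genes with the same sign in both injections and no overlap within either, ordered by the smaller difference. Free places went to genes without overlap and with a fold of at least 1.5 that did not pass, and the 3 members of each list with the smallest p were added. Uncharacterised loci were counted and not named. The comparison and the lists were chosen with earlier results of these data known. Alternatives covered the filter, normalization, model, array weights, moderation, replicate number, each array left out and the probe set per gene. The number of arrays limits the precision.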

Additional observations from a re-analysis of the deposited data

How the results depend on the processing

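The count of 242 probe sets for the shared diet effect was 0 with no filter on low signal, after quantile normalization, after cyclic loess, in an additive model, with diet alone as the term, with trend and robust moderation, and without ND replicates 1 and 3. It was also 0 with the SD and median of the arrays made equal, an alternative chosen after seeing the data. It was 463 with the lowest 50% of probe sets left out, 581 with array medians centred and 1665 with array weights. Leaving out 1 array gave 0 to 1399. The vehicle count of 152 was 0 with no filter, quantile normalization, cyclic loess, array weights, trend and robust moderation, equal SDs, or without ND replicates 1 and 3, and 0 to 1356 with 1 array left out. The vesicle count of 0 was 10 with array weights and 2 without ND replicates 1 and 3, and 0 to 2 with 1 array left out. The count for the difference of the diet differences was 0 to 1 with 1 array left out. The 1057 probe sets without overlap were 1660 without ND replicates 1 and 3 and 1231 to 3239 with 1 array left out. The causes were not tested.

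With the replicate number as a block, the shared count was 985 and the vehicle count 938. Deviations of arrays with the same number correlated at -0.103 to 0.335 over 15 pairs, and those with different numbers at -0.336 to 0.194 over 30 pairs (medians 0.0782 and -0.0465). As a hint from the data, 7 of 11 arrays correlated best with an array of their own number. The labels tie the numbers to nothing, so the numbers were not taken to pair the arrays. Whether they mark a pairing or a batch was not tested, and groups of 2 or 3 arrays are too small for these correlations to decide it.

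The 28 named genes that passed kept their direction in all settings they were tested in, which was 24, or 23 for MIR885, NFE2, PDE12 and PERP, left out with the lowest 50% of probe sets. So did 144 of all 151 named genes, each tested in 23 or 24, and 36 of 49 list medians. The 28 were picked for their differences on these same arrays, so a kept direction was likely beforehand and is no separate support. They lost their pass in 16 (ZDHHC9) to 18 (CUEDC1) of these settings, and OAS2, ANKH and COQ10A lost it in 17. Turned values were ACACB (-0.0165 under quantile normalization, -0.0216 under cyclic loess), ACTN2 (-0.0181 under cyclic loess, -0.0273 with equal SDs), LPL (-0.0143 under cyclic loess), KDR (-0.0294 without ND replicates 1 and 3) and, with equal SDs, TXNIP (-0.0895), RPS3 (-0.102) and MYH7 (-0.102). Among the 13 list medians that turned were those of cardiomyocyte markers (-0.0356 under cyclic loess, -0.203 with equal SDs), sarcomere genes (-0.0273 with equal SDs) and atrial cardiomyocyte markers (-0.0307 to 0.447 with 1 array left out, lowest without HFD replicate 2 and highest without HFD replicate 1). The other 10, over all settings, were cytosolic ribosomal proteins (-0.107 to 0.223), endothelial markers (-0.0228 to 0.307), macrophage markers (-0.00333 to 0.169), circadian genes (-0.00424 to 0.145), ion channels (-0.0248 to 0.141), cell cycle (-0.0699 to 0.154), glucocorticoid-induced genes (-0.0617 to 0.0723), adipocyte (-0.0613 to 0.0548), T or NK cell (-0.0937 to 0.0304) and B or plasma cell markers (-0.249 to 0.244).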

Other observations

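Several genes outside the lists passed without overlap, some of them with nearly equal diet differences with both injections. These and the genes that follow were chosen after their values were seen. SLIT2, a secreted guidance cue bound by ROBO receptors, rose by 0.63 with vehicle and 0.70 with vesicles, LRP6, a co-receptor of Wnt ligands, by 0.67 and 0.63, and the acetyltransferase EP300 by 0.50 and 0.45. PHF11 rose by 0.52 and 0.73, and the tRNA synthetase EPRS, which had the smallest standard error of the named genes that passed (0.0779), by 0.68 and 0.51. TMLHE, the first enzyme of carnitine synthesis, rose by 0.77 and 0.48, and TTPA, the transfer protein of vitamin E, by 0.72 and 0.43. Others differed between the injections. PYGM, the glycogen phosphorylase of muscle, rose by 1.21 with vehicle and 0.43 with vesicles. GVIN1, a large interferon-inducible GTPase, rose by 0.41 with vehicle and 1.19 with vesicles, and its vehicle arrays overlapped.

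Probe sets with more signal had higher shared differences (correlation 0.323 over probe sets), and after quantile normalization this correlation was 0.018. The median of the mean signal was 6.60 for the probe sets that passed and were higher, 5.66 for those that were lower and 4.95 for all.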
